A study of Mus musculus with 12 samples.

Results

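The stem cells of mice given granulocyte colony-stimulating factor (G-CSF) for 5 days were compared with those of mice given it for 2 days, to show how the early and the later response differ across genes. The members are the 6 arrays that the labels place in these groups, 3 mice in each, of 12 arrays in all. The other arrays belong to 3 sham-operated mice, used here as background, and 3 mice infused continuously with the CXCR4 antagonist POL5551 at 100 mg/kg per day for 14 days, which enter only the estimate of the spread. All mice were male. G-CSF was given at 100 ug/kg per injection every 12 h, as 4 injections over 2 days or 9 over 5 days, and the labels name no injections for sham. Cells came from bone marrow enriched for Kit and were sorted by flow cytometry as lineage-negative, Sca-1 and Kit positive cells (LSK) gated on SLAM family markers. RNA of each mouse was labelled with Cy5 and read on 1 single-colour Agilent array without pooling, so n is mice, and the small number of arrays limits the precision. The labels give no age or strain.

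G-CSF is the cytokine that drives the production of neutrophils and is used to move stem cells from marrow to blood. Its receptor, encoded by Csf3r, activates JAK kinases and STAT3, which switches on feedback inhibitors such as Socs3. In the marrow much of its effect on stem cells runs through other cells, since monocytes and stromal cells that make the chemokine Cxcl12 and other retention factors respond to it. Stem cells are normally quiescent, and inflammatory cytokines are known to push them towards division and myeloid differentiation.

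Values below are levels, the log2 of the processed signal relative to the 75th percentile of all probes on the same array, so that a level of 0 lies at that percentile. A difference is the mean level at 5 days minus the mean level at 2 days. It carries the standard error (SE) of limma, a linear model with moderated variances. A gene was called when its limma p, adjusted over all genes by Benjamini and Hochberg's method, was under 0.05. Probe positions are those of the array design on mouse build mm9, and no exon or untranslated region was assigned to them.

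The arrays of both groups were usable but not alike. The 75th percentile of the processed signal was 2728, 2837 and 2714 on 2-day mice 1, 2 and 3, and 5579, 3469 and 2010 on 5-day mice 1, 2 and 3. Probes well above background made up 80.5% to 82.7% at 2 days and 76.5% to 85.6% at 5 days. Olfactory, vomeronasal, taste and keratin-associated genes, which blood cells do not use, are called off-tissue genes here. The median level over their 1542 probes was -2.41, -2.73 and -2.60 at 2 days and -3.97, -3.87 and -3.25 at 5 days. Every 5-day array was thus below every 2-day array in this signal, and 5-day mouse 3 was nearest to them. Sham mouse 1 stood apart at -1.60, against -3.30 and -3.45 on the other shams. The 2-day arrays lay on 1 slide and each 5-day array on a slide of its own, with no slide holding both groups. A fit that takes this off-tissue median as a covariate was therefore made, and its differences are given for many results that it moves. No 5-day array reached the 2-day range of this median, so between these groups it cannot be told apart from time. The fit takes the slope from arrays of the same group, which spread most in sham, through sham mouse 1. A sign that turns with the covariate therefore names no cause.

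Between 2 and 5 days limma called 0 of 33191 genes (0.0%), and the smallest adjusted p was 0.0733. At an unadjusted p under 0.05 there were 1149 genes higher at 5 days (3.46%) and 4221 lower (12.7%), 5370 in all (16.2%). The 2 groups of 3 did not overlap for 3883 genes higher at 5 days (11.7%) and 7711 lower (23.2%). The count of calls depended on how the arrays were weighted. With array quality weights, an alternative added after sham mouse 1 had been seen to stand apart and in which that array has a weight of 0.135, limma called 5027 genes, 1139 higher and 3888 lower. Without sham mouse 1 the count was 14, without sham mouse 3 it was 3, without 5-day mouse 3 it was 4, and with only the 6 G-CSF arrays in the fit it was 7. Zbtb8a and Gm34799 were among the calls without sham mouse 3, Gm34657 among those without 5-day mouse 3, and 4930551E15Rik among the 3 lower calls that quantile normalization gave, and the other calls in these 3 sets had no gene symbol. Slide as a random block gave 0 calls, with 5201 genes at an unadjusted p under 0.05.

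Genes that blood cells do not use and transcripts with no gene symbol were mostly lower at 5 days. The median difference of all genes was -0.27, with 39.0% of them higher at 5 days. Off-tissue genes had a median of -1.01, and 1110 of 1163 tested were lower. Gene models, clones and accessions with no symbol had a median of -0.48 (14549 tested, 28.2% higher). Genes with a symbol, off-tissue genes aside, had a median of 0.01, and 50.2% of 17477 were higher. At an unadjusted p under 0.05, however, genes with a symbol also leaned lower, with 785 higher (4.49%) and 1688 lower (9.66%). Of 6 equal classes of genes by level, the dimmest had a median of -0.54 and the brightest -0.03, while at that p 1.93% of the brightest class were higher and 14.6% lower. The median of all genes was -0.11 with quantile normalization, -0.06 with median scaling, -0.07 with normexp and quantile normalization, -0.11 with the authors' deposited values and -0.04 with the covariate. The share of higher genes among those at an unadjusted p under 0.05 was 21.4%, and it was 33.2% with quantile normalization, 38.5% with median scaling, 34.2% with normexp, 33.4% with the authors' values and 43.8% with the covariate. What moved the off-tissue signal was not tested.

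**Figure D1:**
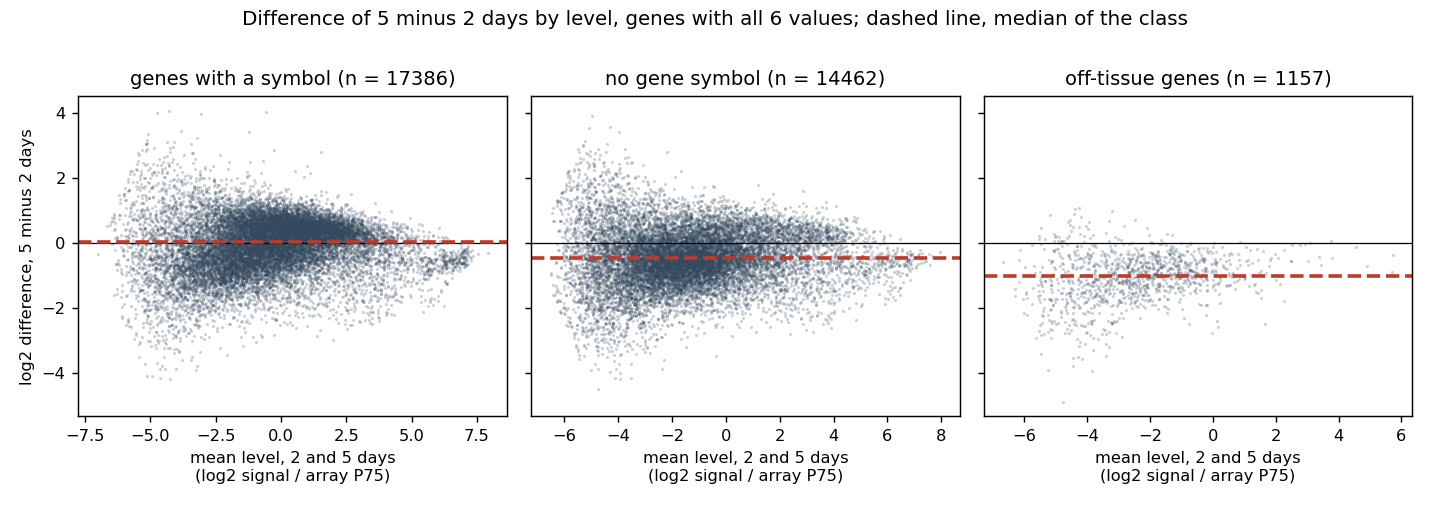
Log2 difference of 5 minus 2 days (y axis) against the mean level of both groups (x axis, log2 signal over the array's 75th percentile) for genes with a symbol, transcripts without one and off-tissue genes; each point is a gene with values on all 6 arrays and the dashed line is the median of the class. The medians lie at 0.01, -0.48 and -1.01.

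Among genes higher at 5 days, those named for the smallest p had a probe well above background on every 5-day and on no 2-day array. Zbtb8a, a zinc finger and BTB domain protein (chromosome 4, 129031163 to 129031222), had levels of -2.61, -2.49 and -3.15 at 5 days and -6.71, -6.81 and -6.75 at 2 days. All 5-day arrays, no 2-day array and 1 sham array had its probe well above background, and the sham levels were -5.96, -5.07 and -4.16. The signal at 5 days was at least 3.89-fold higher (adjusted p = 0.0733), where the bound compares the brighter group with the lowest signal that passed as well above background on each array of the other group. Zbtb8a passed without sham mouse 1 (adjusted p = 0.0156), without sham mouse 3 (0.0444), with only the G-CSF arrays (0.0469) and with array weights (0.00222).

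Ddx11, a DNA helicase of sister chromatid cohesion (chromosome 17, 66500580 to 66500639), was also higher in every 5-day than in every 2-day mouse. Its 2-day levels overlapped those of sham, while those of Zbtb8a lay below every sham. Its levels were -2.97, -3.21 and -3.13 at 5 days, -5.82, -4.90 and -5.68 at 2 days and -5.90, -5.47 and -5.73 in sham. It was at least 3.05-fold higher at 5 than at 2 days (adjusted p = 0.0733). Against sham it rose at 5 days (adjusted p = 0.0118) and missed the threshold at 2 days (adjusted p = 0.895), as it did in the direct comparison. Tmem199, an assembly factor of the proton pump of acidic organelles, Gnpda2, which deaminates glucosamine 6-phosphate, and Dbt, a subunit of the branched-chain keto acid dehydrogenase, were higher at 5 days by at least 1.92-fold, 2.26-fold and 5.51-fold (adjusted p = 0.25 each). None of these had a probe above background at 2 days, while Dbt was above it on 2 sham arrays and Gnpda2 on 1. All 3 tested probes of Gnpda2 were higher at 5 days, by 2.40 to 3.17.

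Zmynd12, Bpifa3 and Pate6 were among the genes with the smallest p in the lower direction at 5 days. Zmynd12, a zinc finger protein (chromosome 4, 119122924 to 119122983), had levels of -0.95, -1.09 and -1.06 at 2 days and -2.84, -2.91 and -2.99 at 5 days, a difference of -1.88 (SE 0.323, adjusted p = 0.25). Its sham levels, -1.11, -1.40 and -1.89, lay between the groups, and its other probe gave -0.65. The differences of Bpifa3 (-2.25) and Pate6 (-3.47) also had an adjusted p of 0.25 each. These genes stand beside the off-tissue genes, whose level was lower on every 5-day array; with the covariate their differences were -1.49 for Zmynd12, -1.63 for Bpifa3 and -2.50 for Pate6.

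**Figure D2:**
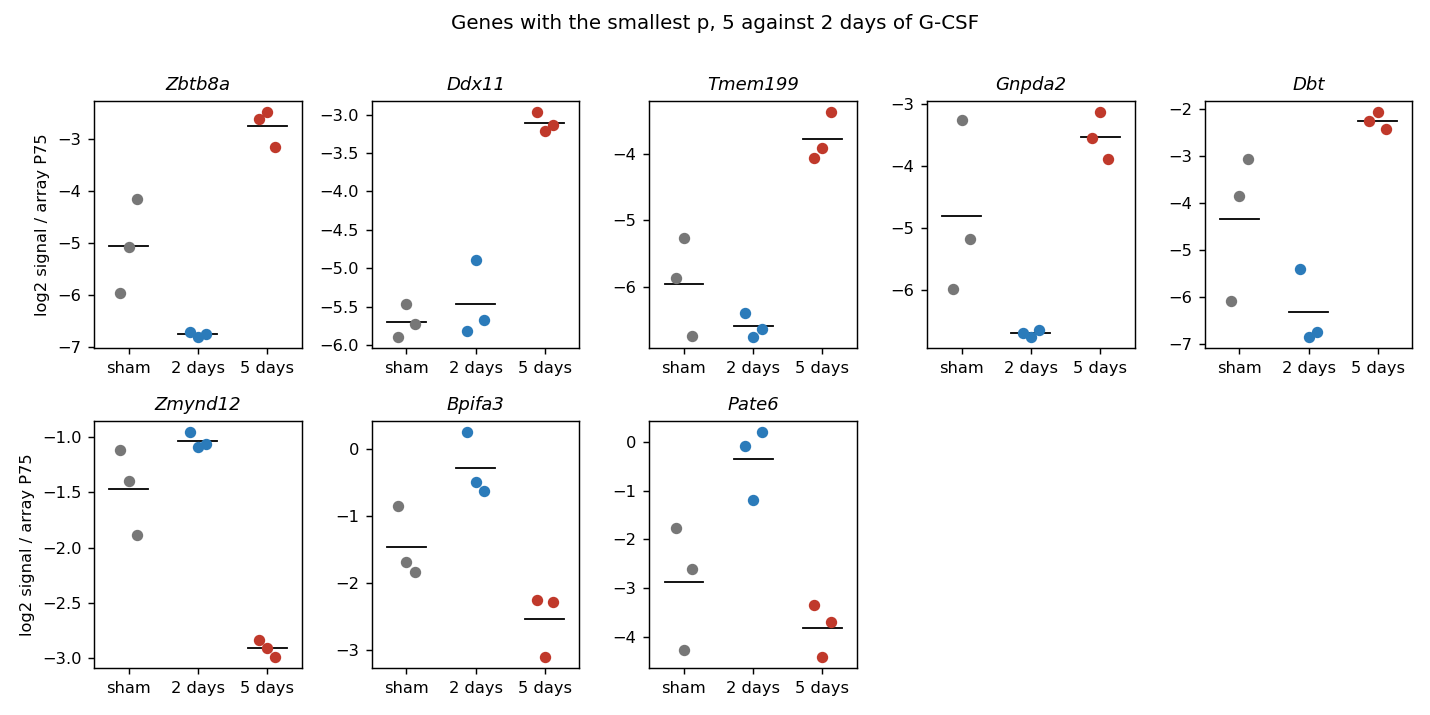
Level in each mouse (y axis, log2 signal over the array's 75th percentile; each panel has its own scale) for Zbtb8a, Ddx11, Tmem199, Gnpda2 and Dbt (upper row) and Zmynd12, Bpifa3 and Pate6 (lower row), which are among the genes with the smallest p between 5 and 2 days of G-CSF under the naming rule; points are mice, drawn from left to right as mice 1 to 3, and bars are group means. In the upper row the 5-day mice lie above all 2-day mice, and in the lower row below them.

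The genes that rose over sham under G-CSF included some whose 2-day and 5-day levels overlapped, such as Socs3, and some that were higher in every 5-day than in every 2-day mouse, such as Cd53, although no gene was called between the times. Against sham limma called 11 genes at 2 days (0.0331%, 10 higher and 1 lower) and 22 at 5 days (0.0663%, 16 higher and 6 lower). At an unadjusted p under 0.05 there were 3027 and 3694 genes. Without sham mouse 1 the calls were 166 at 2 days and 19 at 5 days. There were 6 genes called at both times, of which 5 have a symbol. The comparisons share the sham arrays, so that this overlap is no independent evidence. Csf2rb2, Selp, Tgfbi and Dhrs3 were named because they were called against sham, at 5 days only. The genes fixed for naming include some called against sham earlier on these arrays. Of the fixed genes, Rcvrn, Cltrn and Muc1 were called here at 5 days only. Picking genes by a call on the same 5-day arrays favours a positive difference between the times, which is no separate support.

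Socs3, the feedback inhibitor of JAK and STAT3 signalling (chromosome 11, 117827480 to 117827539), was as high at 2 days as at 5 days within the spread of the mice. Its levels were 2.88, 3.39 and 3.18 at 2 days, 3.29, 3.34 and 2.79 at 5 days and -1.0, 0.23 and 0.07 in sham. It rose over sham by 3.38 at 2 days (adjusted p = 0.0162) and 3.37 at 5 days (adjusted p = 0.00942). All G-CSF mice were above all shams and the G-CSF groups overlapped, with a difference of -0.01 whose 95% interval ran from -0.86 to 0.84. The sign of that difference is not settled, since it was 0.13 with quantile normalization and -0.66 with the covariate.

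Gadd45g, a stress-inducible regulator of growth arrest (chromosome 13, 51943733 to 51943792), behaved alike. It stood at 1.16, 1.58 and 1.62 at 2 days and 1.84, 1.25 and 0.99 at 5 days, against -0.93, -1.21 and -1.17 in sham (adjusted p = 0.0177 and 0.0118 for 2 and 5 days). The groups overlapped and differed by -0.09 (95% interval -0.75 to 0.57). Borcs5, part of a protein complex that moves lysosomes within the cell (chromosome 6, 134660740 to 134660799), had no sham array with signal well above background. It rose at least 7.87-fold at 2 days and at least 6.1-fold at 5 days (adjusted p = 0.00738 and 0.00779), and the difference between the times was -0.37 (95% interval -1.33 to 0.60), or -0.16 with the covariate. Intervals of this width do not show that the levels were equal.

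Cd53, a tetraspanin of leukocyte membranes (chromosome 3, 106565046 to 106566140), stood highest at 5 days. It read -6.01, -5.56 and -4.61 in sham, -0.87, -0.70 and -0.09 at 2 days and 1.95, 1.94 and 1.1 at 5 days. The 3 groups did not overlap, with sham lowest and 5 days highest. Both rises over sham passed (adjusted p = 0.00738 at 2 days and 0.000149 at 5 days). The difference between 5 and 2 days was 2.22 (SE 0.442, 95% interval 1.25 to 3.19), with an adjusted p of 0.25 over all genes, and 0.0249 with array weights. With the covariate it was 1.44.

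Csf2rb2, a mouse beta subunit that serves the receptor for interleukin 3 (chromosome 15, 78113126 to 78113185), had the same order of groups. Its levels were 0.01, -0.48 and 0.06 in sham, 1.59, 1.42 and 1.07 at 2 days and 2.63, 2.57 and 2.45 at 5 days, with no overlap between any of the groups. The rise over sham passed at 5 days (2.69, adjusted p = 0.00779) and missed at 2 days (1.50, adjusted p = 0.163, and 0.0457 without sham mouse 1). The difference between the times was 1.19 (SE 0.281, 95% interval 0.57 to 1.80, adjusted p = 0.25, and 0.0249 with array weights), and 1.27 with the covariate. Csf2rb, the common beta subunit of the receptors for interleukin 3, interleukin 5 and GM-CSF and a close paralog, had 4 tested probes with differences of -0.90, -0.02, 1.32 and 1.34, and the brightest of them, at -0.02, gave 0.27 with the covariate. Whether probes of the pair bind each other's transcripts was not tested, so the split between them is uncertain.

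Promoter sequence is shown for Socs3 and Csf2rb2, genes of cytokine response that rose over sham with different courses and that both hold the palindromic pattern TTCNNNGAA, the core to which activated STAT proteins bind. The sequences are the 250 bases before the annotated start of each gene from RefSeq on GRCm38.p6, read 5′ to 3′ on the gene's strand, with the pattern in capitals. Socs3 is on the minus strand at chr11:117969367-117969616 and Csf2rb2 on the minus strand at chr15:78305722-78305971.
Socs3: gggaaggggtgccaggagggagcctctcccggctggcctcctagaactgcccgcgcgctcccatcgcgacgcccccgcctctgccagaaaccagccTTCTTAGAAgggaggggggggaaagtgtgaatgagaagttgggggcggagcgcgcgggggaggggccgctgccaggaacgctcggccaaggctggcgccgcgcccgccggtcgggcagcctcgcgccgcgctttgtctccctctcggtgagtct
Csf2rb2: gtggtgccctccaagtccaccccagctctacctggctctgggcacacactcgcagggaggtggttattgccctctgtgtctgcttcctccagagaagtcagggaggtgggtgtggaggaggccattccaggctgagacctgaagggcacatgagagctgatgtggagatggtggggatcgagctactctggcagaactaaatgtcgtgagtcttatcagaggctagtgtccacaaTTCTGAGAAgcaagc
The match begins 154 bases before the start in Socs3 and 15 bases before it in Csf2rb2. Of 32851 promoters of this length, 7.02% hold TTCNNNGAA, 6.75% hold the AP-1 pattern TGANTCA and 6.02% the E-box CACGTG, all searched on both strands, on which these palindromes read alike. A promoter was found for 93 of the 121 genes that the naming rule and the text single out, and 7 of them hold TTCNNNGAA. A match describes the letters and is no evidence of binding.

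Of the other genes raised at 5 days, Rcvrn, recoverin, a calcium sensor known from photoreceptors (chromosome 11, 67516723 to 67516782), read -2.64, -2.84 and -2.57 at 2 days and -1.15, -0.58 and -0.32 at 5 days. Its signal passed the background limit on no sham array and on every 2-day and 5-day array. It stood at least 3.9-fold over sham at 2 days (adjusted p = 0.161) and at least 15.6-fold at 5 days (adjusted p = 0.00942). The groups did not overlap, with a difference of 2.00 (SE 0.603, adjusted p = 0.25). Selp, P-selectin, an adhesion molecule of platelets and endothelium that is also used as a mark of aged stem cells (chromosome 1, 166074040 to 166074099), read 1.46, 1.72 and 2.03 at 2 days and 2.63, 2.70 and 2.36 at 5 days, against 0.45, 0.56 and -0.12 in sham. It rose over sham at 5 days (2.27, adjusted p = 0.0356, and 0.0522 without sham mouse 1), and it was 0.83 higher than at 2 days (SE 0.322, adjusted p = 0.271). Wfdc17, an inhibitor of serine proteases made by activated myeloid cells, rose at both times and read 1.37, 1.57 and 1.56 at 2 days and 1.87, 2.51 and 2.09 at 5 days, a difference of 0.65 (SE 0.426, adjusted p = 0.423) that was 1.01 with the covariate.

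Cltrn, Muc1, Tgfbi and Dhrs3 rose over sham at 5 days and missed the threshold at 2 days, but without sham mouse 1 Cltrn (adjusted p = 0.0457) and Muc1 (0.0374) passed at 2 days too. Their differences between the times were 1.07 for Cltrn, an amino acid transport partner, 0.49 for the mucin Muc1, 0.36 for Tgfbi, an extracellular matrix protein induced by TGF-beta, and 0.71 for Dhrs3, a retinal reductase. In each of them the groups overlapped, and with the covariate Muc1 was at 0.24 and Tgfbi at -0.03. The calls of Tgfbi and Dhrs3 at 5 days were lost without sham mouse 1 (adjusted p = 0.0947 and 0.0577).

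**Figure D3:**
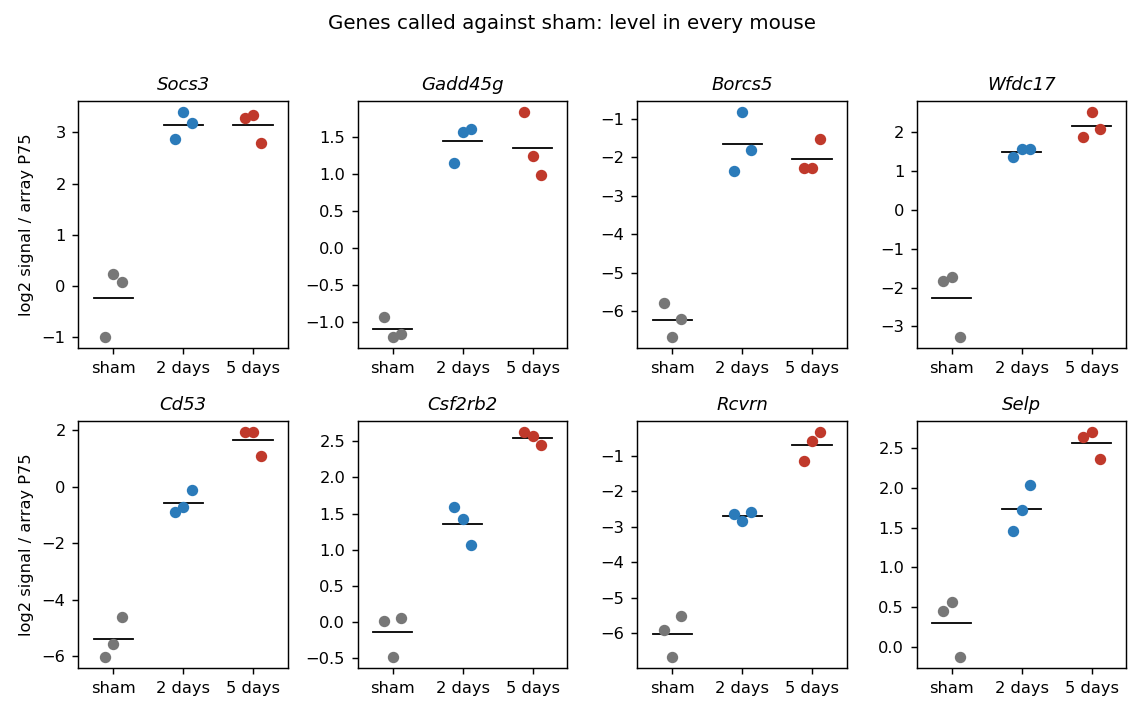
Level in each sham, 2-day and 5-day mouse (y axis, log2 signal over the array's 75th percentile; each panel has its own scale) for 8 genes called against sham; points are mice, drawn from left to right as mice 1 to 3, and bars are group means. Socs3, Gadd45g and Borcs5 overlap between 2 and 5 days, while Wfdc17, Cd53, Csf2rb2, Rcvrn and Selp do not.

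The list of the G-CSF receptor and STAT targets was mixed. Of 35 tested members, 25 were higher and 10 lower at 5 days, with a median of 0.17 that was -0.30 with the covariate. None was called, and 3 higher and 3 lower members had an unadjusted p under 0.05, against 3.46% and 12.7% of all genes. Csf3r, the receptor itself, read 5.84, 5.75 and 5.60 at 2 days and 5.20, 5.29 and 5.42 at 5 days. Its difference of -0.43 (SE 0.347, adjusted p = 0.504) turned to 0.16 with quantile normalization and 0.17 with the covariate, so no direction holds. The STAT target Pim1 and Stat3 itself differed by 0.17 and 0.16, and the kinase gene Pim2 by 0.87, and with the covariate they were -0.48, -0.45 and -0.49. Other probes of Stat3 gave -0.77 and 0.69.

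Receptors of related cytokines differed among themselves. Il5ra, the specific subunit of the interleukin 5 receptor (chromosome 6, 106660378 to 106660437), read 3.63, 2.17 and 3.55 at 2 days and 1.19, 0.70 and 0.81 at 5 days, a difference of -2.22 (SE 0.614, adjusted p = 0.25) that was -1.13 with the covariate. In sham it spread from 0.29 to 2.94. Csf2ra, the subunit of the GM-CSF receptor, and Il3ra, that of the interleukin 3 receptor, differed by -0.16 (95% interval -0.74 to 0.43) and 0.17 (95% interval -0.52 to 0.86), and by -0.07 and -0.03 with the covariate. Il6ra was lower by one of its probes (-1.59) and higher by the other (0.24). Il5ra shared its lowest mouse with other genes whose brightest probe was lower at 5 days, namely Il6ra, Tpx2, Nr4a3, Map3k7, Lpl, Lss and Eomes, a set put together after the values were seen. Within each of the 2-day, 5-day and sham groups, every one of these 8 probes was lowest on mouse 2 (sham mouse 1 gave no value for Eomes), although mice of the same number are separate animals.

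Immediate-early and stress genes, which also respond to handling and dissociation of cells, were mostly higher at 5 days. Of 36 tested members 27 were higher and 9 lower, with a median of 0.44, and of 0.35 with the covariate. Over the mice, the median level of the list was -0.12, 0.34 and 0.39 at 2 days and 0.58, 1.05 and 0.14 at 5 days, so that the groups overlapped through 5-day mouse 3. Fos, a subunit of AP-1, read 1.80, 3.05 and 3.12 at 2 days and 3.73, 4.43 and 2.74 at 5 days (difference 0.98, adjusted p = 0.432), and Egr1 had a difference of 0.78, or 0.23 with the covariate. Nr4a3, an orphan nuclear receptor, was the member with the largest difference downwards (-2.01, and -1.08 with the covariate, with its other probe at -0.86), and Btg2, an antiproliferative gene, had the largest upwards (1.20). No member was called.

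Of 9 tested markers of the sort gate, 2 were higher in every 5-day than in every 2-day mouse, Ly6a and Cd34. None was lower without overlap, none was called, and 0 had an unadjusted p under 0.05. Over all genes 11.7% were higher and 23.2% lower without overlap. Kit, the stem cell factor receptor, read 2.61, 2.79 and 2.93 at 2 days and 2.66, 2.72 and 2.65 at 5 days, a difference of -0.10 (95% interval -0.67 to 0.47), or -0.17 with the covariate. Its other probes differed from it, with values up to 0.81. Ly6a, which encodes Sca-1 and is inducible by interferon, read -0.20, 0.37 and 0.37 at 2 days and 1.44, 1.09 and 0.45 at 5 days, a difference of 0.81 (95% interval -0.58 to 2.21) that was -0.64 with the covariate. The SLAM receptor Slamf1 differed by 0.32, and Cd48, which the gate is meant to lack, by -0.08. Cd34 and Flt3, low or absent in long-term stem cells, differed by 0.70 and -0.24, with another probe of Flt3 at 0.76. With the covariate Slamf1 was at -1.20, Cd48 at 0.36, Cd34 at -0.13 and Flt3 at 0.01. Probes of these 6 genes were well above background on all G-CSF arrays. So were 76.5% to 85.6% of all probes there, so this does not show that RNA of the gate's negative markers was present.

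Stem cell identity genes had 27 of 40 members higher at 5 days and a median of 0.27, which was -0.30 with the covariate. Tek, the angiopoietin receptor that supports quiescence in the niche, read -4.49, -4.18 and -3.88 at 2 days and -1.69, -2.31 and -3.40 at 5 days, a difference of 1.71 (SE 0.566, adjusted p = 0.251) that was 0.68 with the covariate. The ETS factor Fli1 was 1.11 higher and the WNT co-receptor Ryk was lower by its brightest probe (-1.09, and -0.57 with the covariate), while another probe of Ryk was 1.30 higher. Procr, the protein C receptor used to mark stem cells, differed by -0.18 (95% interval -1.30 to 0.93), and by -1.02 with the covariate.

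Among quiescence genes 28 of 31 members were higher at 5 days and 3 were lower, with a median of 0.44, and of 0.21 with the covariate. The median level of the list was 0.18, 0.14 and 0.15 at 2 days, 0.45, 0.57 and 0.21 at 5 days and -0.05, 0.11 and 0.14 in sham. By this median the 5-day mice were above the others, mouse 3 least so. Gene by gene, however, the median difference of 5 days from sham was 0.19, and -0.17 without sham mouse 1. At 2 days it was -0.28, and -0.52 without sham mouse 1. A rise of this list over sham is thus not settled. Tob1, an antiproliferative adaptor, read -4.21, -4.70 and -3.36 at 2 days and -1.73, -1.76 and -2.99 at 5 days (difference 1.93, SE 0.511, adjusted p = 0.25). Its sham levels were -3.17, -1.83 and -1.87. Hes1, a NOTCH target that was well above background on no 2-day and on 2 of the 5-day arrays, was at least 1.24-fold higher. The inhibitors of cyclin-dependent kinases Cdkn1b and Cdkn1c were each 0.40 higher, though Cdkn1c was at -0.28 with the covariate. Cdkn1c read 0.43, 1.84 and 1.92 in sham and between -0.73 and 0.45 in the G-CSF mice, so sham mouse 1 lay within the G-CSF range. Btg1 was lower by its brightest probe (-1.37) and higher by the other (0.87).

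Cell cycle genes showed little difference between the times. The S phase list had a median of 0.20 with 34 of 47 members higher, and the G2/M list a median of 0.06 with 27 of 45 higher; with the covariate the medians were -0.28 and -0.14. Mki67, which marks dividing cells, read 0.47, 1.21 and 0.64 at 2 days and 1.18, 1.11 and 0.77 at 5 days (difference 0.25, 95% interval -0.62 to 1.13). Within the lists, the spindle checkpoint gene Mad2l1 was 1.25 higher and the spindle assembly factor Tpx2 was lower (-2.54), and neither was called. With the covariate they were at 0.29 and -1.66, and the other probe of Mad2l1 gave 0.66.

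Among genes of retention and adhesion, the integrin genes Itgb2 and Itga4 were higher at 5 days by their brightest probe, and Itgav was lower by its own. In the list of CXCR4 signalling, adhesion molecules and niche factors, 32 of 46 members were higher, with a median of 0.30, which was -0.19 with the covariate. At an unadjusted p under 0.05 there were 6 higher and 4 lower members, against 3.46% and 12.7% of all genes. Itgb2, the beta chain of leukocyte integrins, read 0.38, 1.02 and 0.35 at 2 days and 1.98, 2.36 and 1.79 at 5 days, a difference of 1.46 (SE 0.369). Itga4, the alpha chain of VLA-4 which anchors stem cells to VCAM1, read -1.14, -0.78 and -1.61 at 2 days and 0.22, 0.22 and 0.05 at 5 days, a difference of 1.34 (SE 0.405), while other Itga4 probes well above background on all 6 arrays gave 0.30 and -0.15. The groups did not overlap for either, the adjusted p was 0.25 for both, and with the covariate the differences were 0.97 and 0.82. Itgb2 read 1.18, 1.60 and 2.03 in sham, with shams 1 and 2 between the 2-day and 5-day mice and sham 3 within the 5-day range. Itgav was lower (-1.37), though another of its probes was 0.58 higher.

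Cxcr4 read 1.73, 2.55 and 1.96 at 2 days and 2.43, 2.86 and 2.74 at 5 days, against 1.36, 3.79 and 3.47 in sham. The difference between the times, 0.60 (95% interval -0.59 to 1.79), was -0.39 with the covariate. Its ligand Cxcl12, made by stromal cells, read -1.48, -1.38 and 2.34 at 2 days and 2.94, 1.03 and 2.62 at 5 days (difference 2.37, SE 0.942, adjusted p = 0.276). Adipoq, Igfbp5 and Hp were likewise highest on mouse 3 at 2 days and on mouse 1 at 5 days and in sham. Adipoq, adiponectin, read -0.95, -0.70 and 1.83 at 2 days and 3.15, 0.67 and 2.80 at 5 days. Igfbp5, an IGF-binding protein of stroma, read -3.85, -4.62 and 0.69 at 2 days and 2.77, -0.17 and 1.68 at 5 days. All 4 genes were far higher on 2-day mouse 3 than on the other 2-day mice, so the groups overlapped. The summed level of the 27 tested stromal and osteoblast markers ran from 50.3 to 92.5 at 2 days, 48.3 to 95.4 at 5 days and 49.5 to 74.9 in sham, in multiples of the array's 75th percentile. Their part in the Cxcl12 value was not tested.

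Innate sensing genes were mixed. In the Toll-like receptor and NF-kB list 25 of 40 members were higher at 5 days and 15 lower (median 0.16, and -0.22 with the covariate). At an unadjusted p under 0.05 there were 3 higher and 4 lower members, against 3.46% and 12.7% of all genes. Tlr4, the receptor for bacterial lipopolysaccharide, read 1.11, 0.87 and 0.82 at 2 days and -0.41, -0.77 and -0.08 at 5 days. Its brightest probe gave a difference of -1.35 (SE 0.401, adjusted p = 0.25, and 0.0249 with array weights), with no overlap, but another probe was 1.15 higher the mean of its probes gave 0.28, and the covariate gave -0.58. Tlr2, the receptor for bacterial lipoproteins, differed by 0.14 (95% interval -0.52 to 0.80), and by -0.24 with the covariate. Tnfaip3, which encodes the NF-kB inhibitor A20, was 1.69 higher, and the kinase gene Map3k7 was lower by its brightest probe (-1.83, and -1.03 with the covariate), with its other probes at 0.53 and 0.17.

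Of 41 type I interferon genes 31 were higher at 5 days (median 0.38), and of 31 genes of interferon gamma and MHC class II 21 were (median 0.40). The covariate turned these medians to -0.22 and -0.30. Over the mice, the median of the type I list was 0.04, 0.35 and 0.58 at 2 days, 0.40, 0.66 and 0.27 at 5 days and -0.30, 1.07 and 0.75 in sham. The G-CSF groups overlapped, and both lay below shams 2 and 3. Ifi204, an interferon-inducible DNA sensor, was 0.93 higher by its brightest probe with the other at -1.08 and the covariate giving 0.25, and Eif2ak2, the kinase PKR, was lower (-0.99).

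Genes of ribosome assembly were mostly higher at 5 days. Of 43 tested genes of MYC and ribosome assembly 38 were higher at 5 days and 5 lower, with a median of 0.55. At an unadjusted p under 0.05 there were 7 higher members and 0 lower, and the groups did not overlap for 15 higher and 1 lower. Over all genes these shares were 3.46% and 12.7% at that p, and 11.7% and 23.2% without overlap. The median level of the list was 0.36, 0.75 and 0.55 at 2 days, 1.37, 1.58 and 1.15 at 5 days and -0.02, 1.23 and 1.28 in sham. Every 5-day mouse was thus above every 2-day mouse, and shams 2 and 3 lay at the 5-day level. Polr1a, the largest subunit of RNA polymerase I, read -2.83, -2.24 and -1.73 at 2 days and -0.77, -0.62 and -0.59 at 5 days, a difference of 1.61 (SE 0.443, adjusted p = 0.25), with other probes at 0.64 and -0.20. Rrs1, a ribosome assembly factor, was 1.09 higher and Srm, spermidine synthase, was lower by its brightest probe (-0.52), with another probe at 1.16. With the covariate the median of the list was 0.06.

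Oxidative phosphorylation genes had 42 of 47 members higher (median 0.38), proteasome genes 29 of 32 (median 0.36) and genes of glycolysis and hypoxia 24 of 32 (median 0.31). The oxidative phosphorylation list had median levels of 1.57, 2.00 and 1.89 at 2 days, 2.39, 2.56 and 1.97 at 5 days and 1.19, 2.38 and 2.61 in sham. Cycs, cytochrome c, was 0.99 higher (SE 0.347) by its brightest probe and lower by the other (-0.91), and Ndufb6, a complex I subunit, was 1.11 higher. With the covariate Cycs was at 0.55 and Ndufb6 at 0.40. For glycolysis and hypoxia all 5-day mice (1.48, 1.38 and 1.1) were above all 2-day mice (0.82, 0.76 and 0.79). Egln3, an oxygen sensor induced by hypoxia, was at least 1.64-fold higher. With the covariate these 3 medians were -0.23, -0.49 and -0.33, so their direction was not settled, and the cause was not tested. Ribosomal protein genes had a median of 0.10 (44 of 75 higher), and of 0.45 with quantile normalization.

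The unfolded protein response list had 21 of 32 members higher (median 0.41) and cholesterol synthesis 23 of 31 (median 0.29), against -0.14 and -0.20 with the covariate. In the unfolded protein response list Asns, asparagine synthetase, was 1.28 higher, and Atf3 was lower (-1.10, and -0.08 with the covariate). The p53 list had a median of 0.11 (19 of 32 higher) and the clock list of 0.05 (12 of 21 higher). Sesn2, a stress sensor of nutrient signalling in the p53 list, was lower (-1.05, and -0.31 with the covariate). Ciart, a repressor of the clock, was lower (-1.92), with 2-day mouse 3 at 2.75 far above the other 2-day mice (0.25 and -0.13). The BCL2 family was the pathway list with a median below 0 (-0.16, 6 of 16 higher), with Mcl1, a survival factor of stem cells, at 0.30 and the death gene Bik at -1.07, and at -0.68 and -0.06 with the covariate.

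**Figure D4:**
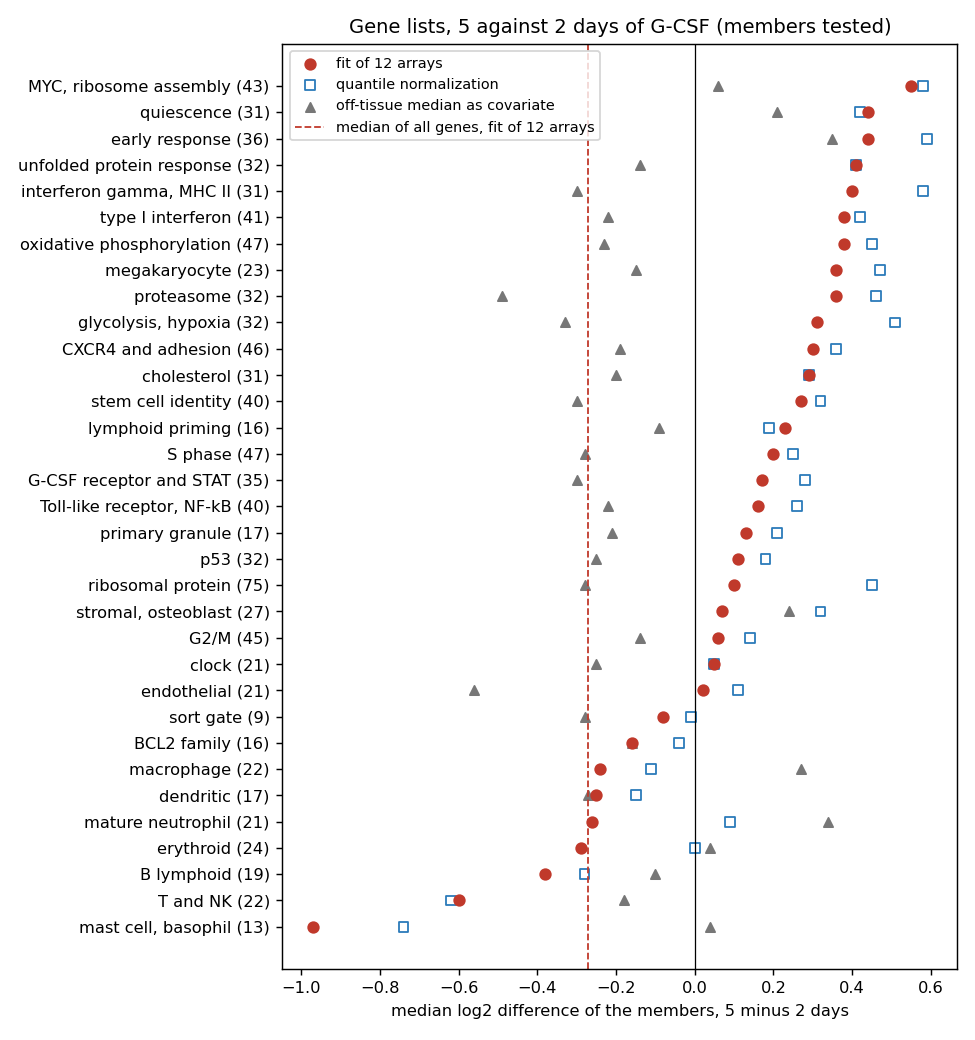
Median log2 difference of 5 minus 2 days over the tested members (x axis) of each gene list (y axis, with the number of members tested), from the fit of 12 arrays (circles), after quantile normalization (squares) and with the covariate of the off-tissue signal (triangles); the dashed line is the median of all genes, -0.27. Most pathway lists lie above 0 in the fit and after quantile normalization and below 0 with the covariate. Of the pathway lists, early response, quiescence and MYC with ribosome assembly lie above 0 in all 3. Genes with a symbol, off-tissue genes aside, had a median of 0.01 in the fit.

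Markers of other cell types were well above background on most arrays, as were 76.5% to 85.6% of all probes on the G-CSF arrays. Those of T and NK cells, B lineage and mast cells had medians below the -0.27 of all genes and the 0.01 of genes with a symbol. In bulk RNA, fewer cells of a type and less RNA per cell cannot be told apart. T and NK markers were lower in 21 of 22 (median -0.60), with a summed level of 82.6 to 153 at 2 days, 33.9 to 66.5 at 5 days and 35.2 to 73.1 in sham. Cd4, a co-receptor of helper T cells, read 5.02, 3.80 and 4.17 at 2 days and 2.51, 1.58 and 3.01 at 5 days (difference -1.97, SE 0.554, adjusted p = 0.25, and -1.25 with the covariate), while its other probe gave a difference of -0.21. B lineage markers were lower in 15 of 19 (median -0.38, summed level 117 to 152 at 2 days, 63.3 to 100 at 5 days and 86.1 to 185 in sham). Mast cell and basophil markers were lower in 12 of 13 (median -0.97), with sums of 17.3 to 19.5, 15.3 to 17.2 and 17.5 to 24.1. With the covariate the 3 medians were -0.18, -0.10 and 0.04, and with quantile normalization -0.62, -0.28 and -0.74.

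The medians of neutrophil, macrophage, erythroid and dendritic markers lay near that of all genes, -0.27, and below the 0.01 of genes with a symbol. With quantile normalization they were 0.09, -0.11, -0.00 and -0.15, against -0.11 for all genes. Mature neutrophil genes had 9 of 21 higher (median -0.26, and 0.34 with the covariate), with sums of 189 to 259 at 2 days, 139 to 271 at 5 days and 188 to 401 in sham. The granule genes Mpo, myeloperoxidase, and Elane, neutrophil elastase, differed in sign, at 0.67 and -0.79 (0.27 and -0.43 with the covariate), and the primary granule list summed to 16.5 to 17.3 at 2 days, 19.7 to 25.9 at 5 days and 10.9 to 18.5 in sham. Macrophage genes had 8 of 22 higher (median -0.24, sums of 34.5 to 40.9 at 2 days and 26.5 to 36.7 at 5 days) and erythroid genes 10 of 24 (median -0.29, sums of 243 to 289 and 131 to 234). Dendritic genes had 5 of 17 higher (median -0.25), endothelial genes 11 of 21 (0.02), stromal and osteoblast genes 14 of 27 (0.07) and lymphoid priming genes 9 of 16 (0.23). Of the defining markers tested, Cdh5 of endothelium was well above background on 2 of the 3 arrays at 2 days and on 0 at 5 days, Clec9a of dendritic cells on 2 at 2 days and 3 at 5 days, and the others on all 6.

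Megakaryocyte markers were mostly higher. Of 23 tested members 15 were higher at 5 days and 8 lower (median 0.36, and -0.15 with the covariate). At an unadjusted p under 0.05 there were 5 higher and 1 lower, against 3.46% and 12.7% of all genes. The summed level of the list was 45.2 to 49.3 at 2 days and 55.8 to 61.3 at 5 days, without overlap, against 32.3 to 64.5 in sham. Pf4, platelet factor 4, read -2.65, -0.67 and -2.71 at 2 days, -0.07, 0.67 and -0.84 at 5 days and -0.87, 1.24 and 1.01 in sham. Its difference was 1.93 (SE 0.674, adjusted p = 0.252), the groups overlapped through 2-day mouse 2, and it was 0.86 with the covariate. Plek, pleckstrin of platelets and leukocytes, was 2.19 higher. Gp6 was lower (-1.37, and -0.01 with the covariate), with overlapping groups, and its other probe gave -1.11. In the whole list the groups did not overlap for 9 higher and 3 lower members, against 11.7% and 23.2% of all genes. Selp and Fli1, described above as higher at 5 days, are also members of this list.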

How the data were processed

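Per the labels' protocols, RNA was isolated with digestion of DNA and labelled chemically with Cy5. Per the file headers, Agilent Feature Extraction 11.5.1.1 made the deposited scanner values, a background-subtracted fluorescence intensity per spot. From them the log2 intensity of the deposited spots was averaged per probe, without outlier spots (60 to 267 per array), and each array's 75th percentile was subtracted. No spot was saturated. The authors' deposited table holds intensity values for 49665 probes with the same median in every column, and its normalization is not given in the sources used here. Its columns for 5-day mice 2 and 3 have the rank order of each other's scanner file, so mouse numbers are those of the scanner files. The levels called the authors' values are the log2 of this deposited table.

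Probes well above background on at least 3 of 12 arrays (49501) were tested. Of the array's probes 32989 were named by RefSeq accession, 10228 by symbol and 519 by synonym, and 12869 were not matched. A gene was its tested probe with the highest mean, giving 33191 genes. Among the 121 genes singled out, several probes were tested for 54, and in 24 of these they lay on both sides of 0.

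The model of 4 group means over 12 arrays was fitted with limma 3.58.1 in R 4.3.3 (8 residual and 3.23 prior degrees of freedom, two-sided, Benjamini-Hochberg). The labels give separate mice. With 3 mice a group, the smallest p of an exact permutation test is 0.1, and every p given is from the pooled spread. Genes were named by rule. In each direction these were up to 10 calls, or else the 5 smallest p. They had a symbol, groups that do not overlap and signal on all arrays of the higher group. The largest difference of each list in each direction was named too, and so were fixed genes, which include some called against sham earlier. Csf2rb2, Tgfbi, Dhrs3 and Selp were not fixed and were added because they were called against sham in this fit. Some genes this rule selects are not reported here. Csf2rb, Csf2ra, Il3ra, Pim1, Pim2, Stat3, Il6ra, Cdkn1b, Cdkn1c, Mpo, Elane, Pf4, Fos, Egr1, Tlr4, Tlr2, Adipoq, Polr1a, Rrs1, Itgb2, Itga4, Hes1, Fli1, Cycs and Cd4 were added after their values were seen. Members, lists and tests were chosen with earlier results of these data known. The fit was tested on simulated data.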

Additional observations from a re-analysis of the deposited data

How the results depend on the processing

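Beyond the counts given with the comparison, the calls between 5 and 2 days ranged from 0 to 14 and the genes at an unadjusted p under 0.05 from 2677 to 8884 when 1 array was left out. Array quality weights, chosen after seeing the data, gave 5027 calls and 12850 genes at that p, the 6 G-CSF arrays alone 7 and 9298, quantile normalization 3 calls, and the covariate 0 calls and 2139 genes. The mouse number as a block changed little, with 0 calls, 5082 genes at that p and a smallest adjusted p of 0.205. The labels give separate mice, and the deviations of same-numbered mice correlated at 0.066, 0.168 and -0.035. Whether mice of the same number shared handling was not tested. The other settings gave 0 calls with 5042 to 5760 genes at that p over 32784 to 37008 genes tested, and 4724 with signal on all 6 G-CSF arrays. The cause of these differences was not tested.

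Of the 121 genes singled out, most kept the sign of their difference under every setting. With the covariate the sign turned for Atp5g1 (0.10), Cd200r3 (0.13), Cd34 (-0.13), Cd48 (0.36), Cdkn1c (-0.28), Csf2rb (0.27), Csf3r (0.17), Cxcr4 (-0.39), Flt3 (0.01), Gata2 (-0.31), Il3ra (-0.03), Ly6a (-0.64), Mcl1 (-0.68), Nkg7 (-0.24), Pim1 (-0.48), Pim2 (-0.49), Psmb2 (-0.77), Satb1 (-0.27), Scd2 (-1.0), Slamf1 (-1.20), Stat3 (-0.45), Tgfbi (-0.03), Tlr2 (-0.24) and Utp20 (-0.32). The mean of all tested probes turned Atp5g1 (0.26), Csf2rb (0.43), Flt3 (0.26), Ifi204 (-0.08), Kit (0.45), Pkm (0.83), Psmd13 (0.63), Srm (0.57) and Tlr4 (0.28). Median scaling turned Cd48 (0.12), Csf2ra (0.04), Csf2rb (0.18), Gadd45g (0.11), Kit (0.10), Procr (0.02), Psmd13 (0.05) and Socs3 (0.19). Csf3r and Socs3 turned with quantile normalization (0.16 and 0.13), normexp (0.23 and 0.16) and the authors' deposited table (0.15 and 0.15), and Csf2rb with the last of these settings (0.05 with normexp and 0.01 with the authors' table). Array weights turned Gadd45g (0.01) and Socs3 (0.08). Leaving out 1 array gave ranges that cross 0 for Borcs5 (-0.71 to 0.05), Cd48 (-0.21 to 0.12), Csf2rb (-0.17 to 0.09), Gadd45g (-0.33 to 0.09), Procr (-0.51 to 0.12), Psmd13 (-0.38 to 0.17), Slamf1 (-0.14 to 0.64) and Socs3 (-0.15 to 0.16).

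Medians of the gene lists moved by more than the spread of the mice as follows. With the covariate they were -0.10 for B lineage, -0.20 for cholesterol, -0.25 for clock, -0.30 for the G-CSF receptor list, -0.19 for CXCR4 and adhesion, -0.56 for endothelium, 0.04 for erythroid, -0.33 for glycolysis, -0.30 for stem cell identity, -0.30 for interferon gamma, -0.09 for lymphoid priming, 0.27 for macrophage, 0.04 for mast cell, 0.34 for neutrophil, -0.15 for megakaryocyte, 0.06 for MYC, -0.23 for oxidative phosphorylation, -0.25 for p53, -0.21 for primary granule, -0.49 for proteasome, 0.21 for quiescence, -0.28 for ribosomal protein, -0.28 for S phase, -0.22 for Toll-like receptor, -0.22 for type I interferon and -0.14 for unfolded protein response genes. Median scaling gave -0.18 for B lineage, 0.50 for cholesterol, 0.25 for clock, 0.50 for CXCR4, 0.22 for endothelium, 0.52 for glycolysis, 0.47 for stem cell identity, 0.43 for lymphoid priming, 0.31 for p53, 0.64 for quiescence, 0.30 for ribosomal protein and 0.37 for Toll-like receptor genes. Quantile normalization gave 0.11 for endothelium, -0.00 for erythroid, 0.51 for glycolysis and 0.45 for ribosomal protein, and the authors' deposited table gave 0.12, 0.00, 0.53 and 0.43 for these and 0.28 for Toll-like receptor genes. Normexp gave -0.20 for B lineage, -0.00 for erythroid, -0.37 for mast cell and 0.43 for ribosomal protein. The mean of all probes gave -0.15 for endothelium, 0.11 for erythroid and 0.38 for the sort gate, and endothelium was at 0.09 with array weights and 0.08 with signal on all 6 G-CSF arrays. Leaving out 1 array, the median ran from -0.62 to -0.08 for B lineage, 0.25 to 0.50 for CXCR4, -0.11 to 0.18 for endothelium, 0.26 to 0.45 for glycolysis, 0.05 to 0.33 for stem cell identity and -1.26 to -0.50 for mast cell genes. Probes near background limit what can be read from Zbtb8a, Ddx11, Tmem199, Gnpda2, Dbt, Egln3 and Hes1, which have only bounds.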
